A study of Saccharomyces cerevisiae with 66 samples.

Results

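The 7 genes described here encode factors of nonsense-mediated mRNA decay (NAM7, NMD2, UPF3 and EBS1) and of the Ski machinery (SKI2, SKI3 and SKI7). They were picked by symbol, by a rule that uses no measured value although earlier results of these data were known, from the 6171 gene lines of the count table, and all 7 were found and passed the filter on low counts. The 7 members did not move as 1 set, though some were alike. SKI2 and SKI3 had similar patterns over the groups (Pearson r = 0.848), as to a lesser degree had NMD2 and EBS1 (0.71). Without auxin, NMD2, EBS1 and NAM7 were all lower in the POP2 strain than in the WT strain. EBS1 fell to about the same extent after auxin in the POP2 and RAT1 strains, NAM7 rose in the RAT1 strain, NMD2 was lowest in the POP2 strain, SKI3 was highest in the PAB1 strain, and UPF3 was called in no comparison.

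Nonsense-mediated decay removes mRNAs on which the ribosome stops too early. NAM7 encodes Upf1, the RNA helicase at its centre, NMD2 encodes Upf2, which bridges Upf1 and Upf3, and UPF3 encodes the third core factor. EBS1 encodes a protein related to the telomerase subunit Est1 and has been linked to nonsense-mediated decay in yeast. The Ski complex feeds mRNA from its 3′ end into the cytoplasmic exosome: SKI2 encodes its helicase, SKI3 its scaffold and SKI7 the adaptor that joins complex and exosome, which is also needed to destroy mRNAs without a stop codon.

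The measurements are poly(A)-selected RNA-seq libraries, 66 in all, from meiotic diploid Saccharomyces cerevisiae in sporulation medium. Each of 11 strains gave 3 libraries with IAA (indole-3-acetic acid, an auxin) and 3 with DMSO, the solvent. All strains are MATa/alpha with ho::LYS2 and lys2. They also share ura3, the leu2::hisG and trp1::hisG disruptions, and an integration at his3 that the labels number. The WT strain carries the auxin-dependent TIR ligase and no tagged target. In 9 strains the gene named was fused to a 3V5-IAA7 degron, which auxin sends for destruction. These were the deadenylase subunit POP2, its complex partner NOT5, the decapping enzyme DCP2, the decapping activators LSM1 and PAT1 and the poly(A)-binding protein PAB1. Also fused were the nuclear exonuclease RAT1, the nuclear exosome nuclease RRP6 and the cytoplasmic exonuclease XRN1. The remaining strain is titled CAF40, a subunit of the same deadenylase complex as POP2 and NOT5, but its genotype label holds no tagged gene. Copper sulphate (50 µM) and IAA (500 µM) were added 3 h into sporulation medium and the titles give 4 h. Whether copper also went into the DMSO cultures is not given, nor whether the 3 libraries of a group came from separate cultures or clones. The p-values therefore rest on the spread between libraries within groups, estimated over all 22 groups together. They do not rest on a known spread between cultures. The degron acts on protein, so mRNA counts do not check the depletion.

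Libraries held 12.6 to 28.3 M counts (median 20.7 M), and the members had 826 to 7116 counts in a library, far above the 3-count floor of 0.106 to 0.238 CPM (counts per 1 M of the scaled library total). Early meiotic genes were abundant, with library medians of 3646 CPM for IME1 and 2754 CPM for IME2. Haploid mating genes were lower but detected, with medians of 26.25 CPM for GPA1, 14.5 for STE3, 14.03 for STE2 and 3.405 for MF(ALPHA)1. The pheromone genes MFA1 and MFA2 had medians of 0.196 and 0.046 CPM. They were at 0 in every library of the PAB1 IAA and NOT5 IAA groups, respectively. A bulk library does not tell fewer cells of a type from less RNA per cell. Whether groups of 3 libraries overlap is given below as a description. Some genes separate without a true difference, and the share of all genes that did is not given here. In what follows a gene is called when limma's moderated test gave an adjusted p under 0.05 (Benjamini-Hochberg, over the 5828 genes tested in each comparison), ± is the SD over n = 3 libraries, and changes are log2 differences with their standard error (SE).

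Per kilobase of coding length, the 4 decay genes lay close together and above the 3 Ski genes. Library medians were 73.7 CPM per kb for UPF3, 66.2 for NMD2, 64.3 for EBS1 and 63.3 for NAM7. The Ski genes stood at 29.5 CPM per kb for SKI7, 26.5 for SKI2 and 23.2 for SKI3, while SKI8, the remaining subunit of the Ski complex, stood at 120 CPM per kb. This order held in the WT DMSO libraries, where the lowest decay gene, NAM7, had 66.0 ± 8.79 CPM per kb and the highest Ski gene, SKI7, had 29.0 ± 3.24. In the POP2 IAA libraries it did not hold: NMD2 had 22.4 ± 0.375 and EBS1 24.4 ± 2.62 CPM per kb, below SKI7 at 31.6 ± 4.63, while UPF3 kept 60.8 ± 2.76 CPM per kb. In the PAB1 IAA libraries SKI3 reached 60.3 ± 4.38 CPM per kb, above EBS1 at 51.1 ± 3.10.

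**Figure D1:**
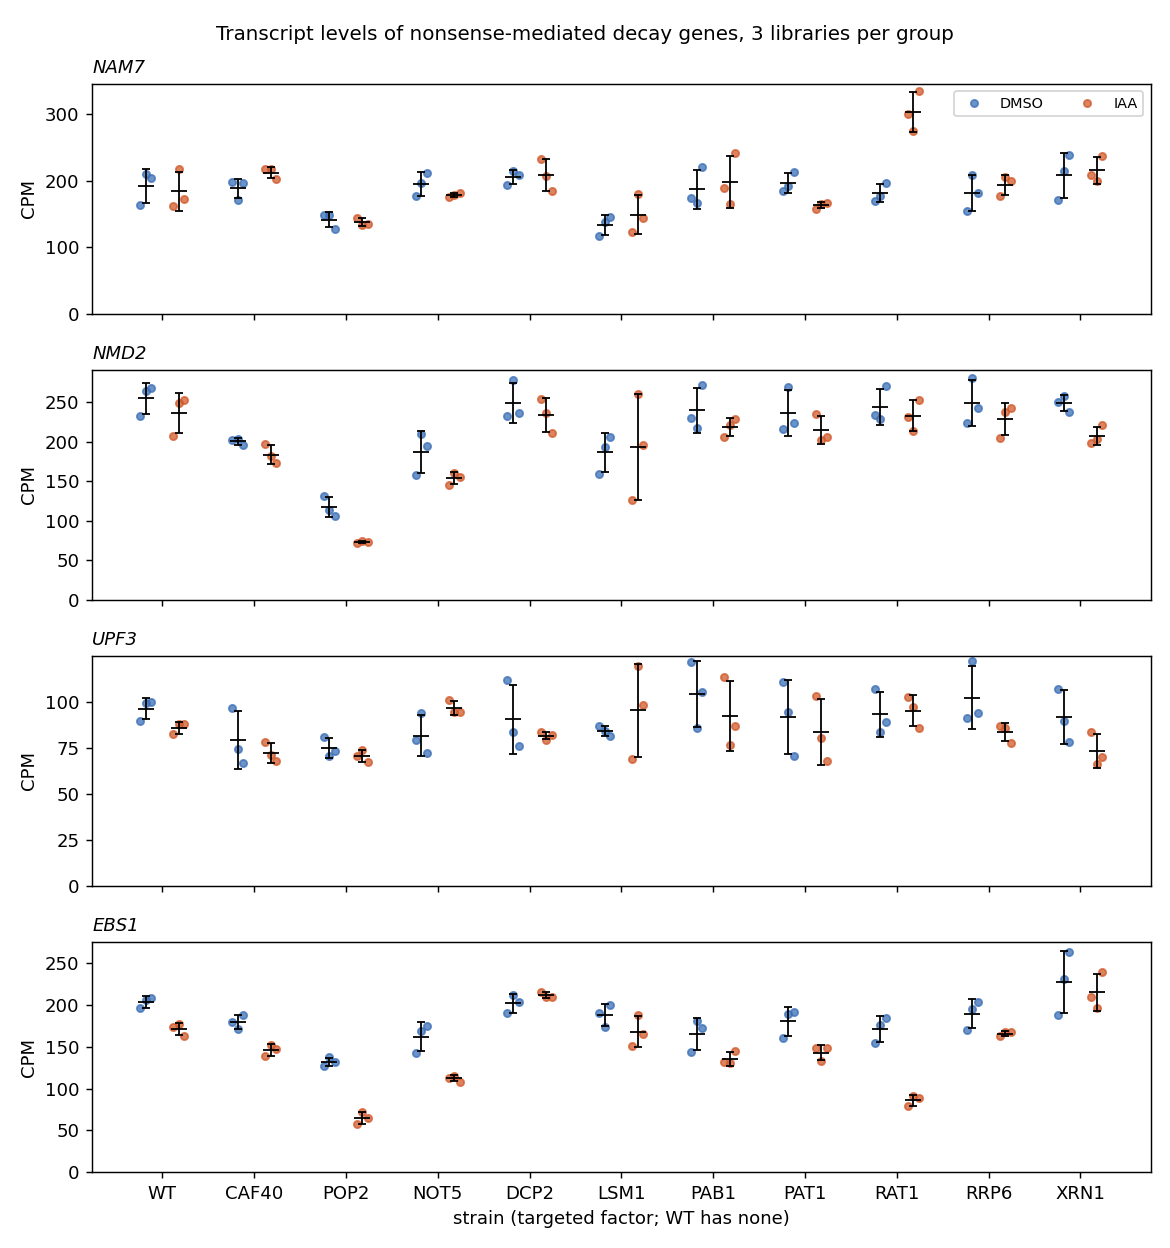
TMM-scaled CPM (y axes, from 0) of NAM7, NMD2, UPF3 and EBS1 in each library of the 11 strains (x axis), with DMSO in blue and IAA in orange; black marks are the mean ± SD of 3 libraries. EBS1 is lowest in the POP2 and RAT1 IAA libraries, NMD2 in both POP2 groups, and the RAT1 IAA libraries stand above all others for NAM7.

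EBS1 varied most of the decay genes, 3.51-fold between its highest and lowest group means. In the POP2 strain its level was 57.5, 71.4 and 65.2 CPM in the IAA libraries and 127, 137 and 132 CPM in the DMSO libraries. The groups were far apart, and EBS1 fell by 1.04 on the log2 scale (SE 0.0991, adjusted p = 6.71e-11). In the RAT1 strain it was 78.9, 91.4 and 88.2 CPM with IAA and 154, 176 and 185 CPM with DMSO. Every IAA library was below every DMSO library, and EBS1 fell by 0.99 (SE 0.0995, adjusted p = 4.83e-11). The NOT5 strain gave 113, 116 and 108 CPM with IAA and 143, 169 and 174 CPM with DMSO, again without overlap. There EBS1 fell by 0.52 (SE 0.0986, adjusted p = 0.000287). With only the NOT5 groups in the fit that call was lost (-0.53, adjusted p = 0.0728, in a range of 0.000174 to 0.0728 over 8 alternatives).

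EBS1 also fell in the PAB1 strain, by 0.28 (SE 0.0979, adjusted p = 0.0308), although its 132, 130 and 145 CPM with IAA overlapped the 144, 180 and 172 CPM with DMSO. This call was lost without PAB1 IAA replicate 1 or 2 or DMSO replicate 2 or 3 (-0.24 to -0.20, adjusted p = 0.121 to 0.203). It was lost in 3 of the other alternatives as well, and under total-count scaling the change was -0.49. In WT the level was 174, 177 and 163 CPM with IAA and 196, 205 and 209 CPM with DMSO. The WT groups did not overlap, and the difference of -0.25 (SE 0.1) was not called (adjusted p = 0.19). The PAT1 strain gave 143 ± 8.63 CPM with IAA and 180 ± 17.5 CPM with DMSO, a difference of -0.33 that was not called (adjusted p = 0.089). It was called by limma under total-count scaling (-0.38, adjusted p = 0.0383) and with the replicate number as a block (adjusted p = 0.0265, in a range of 0.0265 to 0.195 over 8 alternatives). EBS1 was lower with IAA than with DMSO in 10 of 11 strains, the exception being DCP2 at 0.07, and the fall was called in 4.

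Since EBS1 was also lower with IAA in WT, though not called, the change beyond WT was tested as the difference between the IAA effect in a strain and that in WT. EBS1 fell beyond WT by 0.79 in the POP2 strain (SE 0.141) and by 0.74 in the RAT1 strain (SE 0.141), each at an adjusted p of 0.000174. In the NOT5 strain the change beyond WT was -0.28 (95% interval -0.56 to 0.01) and was not called (adjusted p = 0.593). The POP2 and RAT1 comparisons share the WT libraries. Ordered by mean level, EBS1 ran from 227 ± 37.6 CPM in XRN1 DMSO to 64.7 ± 6.97 CPM in POP2 IAA, and 17 of the 21 neighbouring groups overlapped. Neighbours in such an order have the closest means, so for every member overlap between them is partly built in. The 3 gaps at the low end separated POP2 DMSO (132 ± 4.98 CPM), NOT5 IAA (112 ± 3.62), RAT1 IAA (86.2 ± 6.49) and POP2 IAA, each from the next.

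NMD2 was lowest in the POP2 strain, with and without auxin. The IAA libraries held 72.0, 74.4 and 73.9 CPM and the DMSO libraries 132, 114 and 107 CPM. The groups did not overlap, and NMD2 fell by 0.67 (SE 0.135, adjusted p = 8.88e-05). Beyond WT the change was -0.57 (SE 0.196) and missed the threshold (adjusted p = 0.0561), while with only the POP2 and WT groups in the fit it was called (-0.56, adjusted p = 0.0334, in a range of 0.00663 to 0.0873 over 8 alternatives). In the other 10 strains NMD2 was not called, and its IAA differences lay between -0.27 and 0.00. Among its 22 groups, 18 of 21 neighbours in the order of means overlapped. WT DMSO was highest at 255 ± 19.8 CPM, and the gaps lay below CAF40 IAA (184 ± 12.4 CPM), below NOT5 IAA (154 ± 7.41 CPM) and between POP2 DMSO (118 ± 13.1 CPM) and POP2 IAA (73.4 ± 1.23 CPM).

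NAM7 rose in the RAT1 strain. The IAA libraries held 300.1, 275 and 335 CPM, and the DMSO libraries 169, 178 and 197 CPM. These IAA libraries were higher than any other library of the series, where NAM7 reached at most 241 CPM in PAB1 IAA replicate 3. The increase was 0.75 (SE 0.14, adjusted p = 5.04e-05), or 1.68-fold, and beyond WT it was 0.81 (SE 0.194, adjusted p = 0.00311). In RAT1 DMSO replicates 1 and 2 the copper metallothionein gene CUP1-1 was raised (29.1 and 82.6 CPM), as in XRN1 DMSO replicate 3 (176 CPM), against 4.36 to 16.5 CPM in the other DMSO libraries. Leaving these 3 out keeps a single RAT1 DMSO library, which is then assumed to vary like the other groups. In that fit NAM7 rose in the RAT1 strain by 0.63 (adjusted p = 0.0368), the change beyond WT was 0.69 and was no longer called (adjusted p = 0.107, in a range of 3.27e-05 to 0.107 over 8 alternatives), and EBS1 still fell beyond WT by 0.86 (adjusted p = 0.000685).

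In the other 10 strains NAM7 was not called with auxin, and its differences ran from -0.27 in PAT1 to 0.17 in CAF40. The lowest group means were 133 ± 14.7 CPM in LSM1 DMSO, 138 ± 5.59 CPM in POP2 IAA and 142 ± 11.8 CPM in POP2 DMSO, and the highest after RAT1 IAA was 215 ± 20.0 CPM in XRN1 IAA. In the order of means, RAT1 IAA stood clear of XRN1 IAA and NOT5 IAA of PAT1 IAA, while 19 of 21 neighbours overlapped.

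UPF3 had the narrowest range of the 7 genes, 1.47-fold between PAB1 DMSO (104 ± 18.0 CPM) and POP2 IAA (70.8 ± 3.21 CPM). All 21 neighbouring groups in the order of means overlapped in their libraries. In the comparisons themselves, its libraries did not overlap between IAA and DMSO in WT, NOT5 and RRP6. Nor did those of POP2 DMSO or LSM1 DMSO overlap WT DMSO. It was called in none of the 31 comparisons by limma with all 66 libraries in the fit, and the unadjusted p was under 0.05 in 0 of 11 IAA comparisons, 0 of 10 beyond WT and 1 of 10 in DMSO. Its IAA differences ran from -0.32 in XRN1 to 0.25 in NOT5. The XRN1 libraries gave 83.5, 66.0 and 70.1 CPM with IAA and 107, 89.5 and 78.1 CPM with DMSO, which overlapped. That difference (95% interval -0.66 to 0.02, adjusted p = 0.261) was called with the replicate block (adjusted p = 0.0477, in a range of 0.0477 to 0.441 over 8 alternatives). With only the compared groups in the fit, UPF3 was also called lower in POP2 DMSO than in WT (-0.36, adjusted p = 0.0304, in a range of 0.0304 to 0.183 over 8 alternatives, against 0.108 with all libraries).

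**Figure D2:**
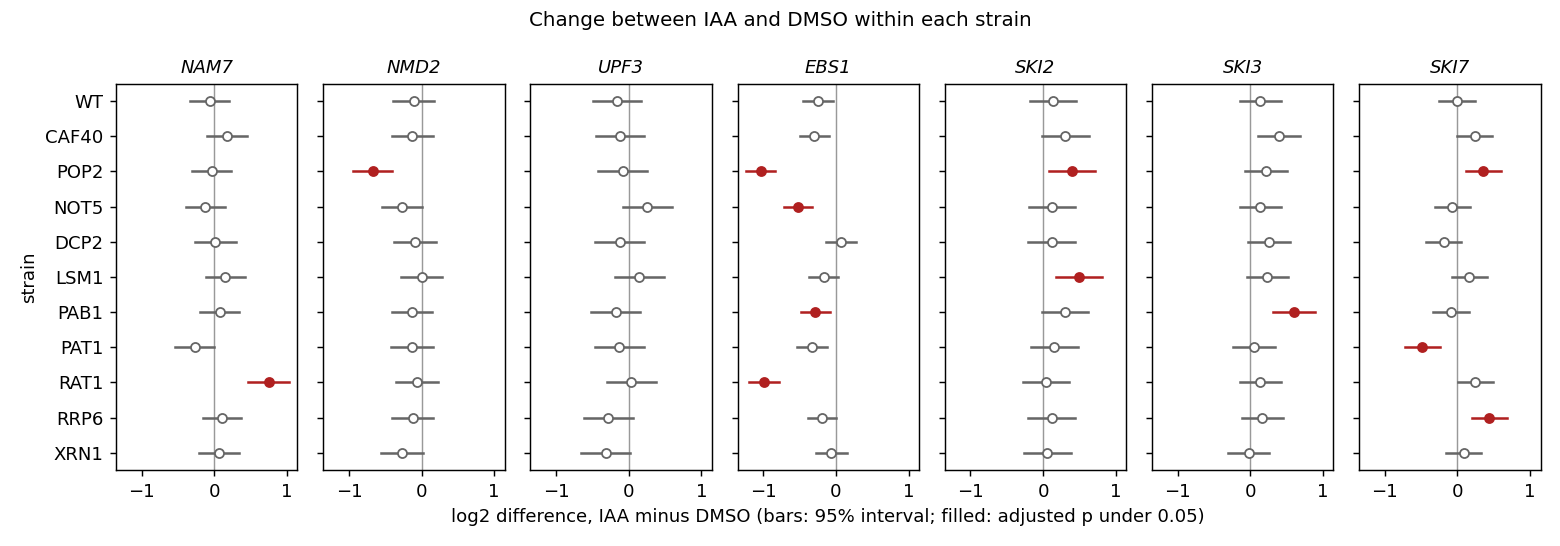
log2 difference between IAA and DMSO (x axes) for the 7 genes in each of 11 strains (y axis), with 95% intervals; filled red points have an adjusted p under 0.05. EBS1 lies near -1 in POP2 and RAT1, NAM7 at 0.75 in RAT1, and all 11 SKI2 points lie right of 0 while 2 of them are called.

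SKI3, the scaffold gene, stood out in the PAB1 strain. It held 240, 259.7 and 278 CPM with IAA and 140.2, 189 and 188 CPM with DMSO. The groups did not overlap, and SKI3 rose by 0.60 (SE 0.144, adjusted p = 0.00171), or 1.51-fold. The change beyond WT was 0.46 (95% interval 0.05 to 0.87) and was not called (adjusted p = 0.314). Under total-count scaling, which moved the median of all genes in this comparison by -0.21, the change was 0.39, and with only the PAB1 groups in the fit the call was lost (adjusted p = 0.111, in a range of 0.0004 to 0.111 over 8 alternatives). Outside the PAB1 strain the group means of SKI3 lay between 75.8 ± 15.7 CPM in NOT5 DMSO and 140 ± 9.53 CPM in CAF40 IAA. In the CAF40 strain its difference was 0.39 and was not called (adjusted p = 0.0735), though 130, 149 and 140 CPM with IAA did not overlap 90.9, 107 and 123 CPM with DMSO. That difference was called by limma under total-count scaling (0.45, adjusted p = 0.0251) and with the replicate block (adjusted p = 0.0205, in a range of 0.0205 to 0.182 over 8 alternatives).

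SKI2, the helicase gene, was higher with IAA than with DMSO in 11 of 11 strains, from 0.04 in RAT1 to 0.49 in LSM1. It was called in the LSM1 and POP2 strains and beyond WT in none, where the unadjusted p was under 0.05 in 0 of 10. In LSM1 it held 108, 163 and 135 CPM with IAA and 94.0, 89.5 and 101 CPM with DMSO, groups that did not overlap (0.49, SE 0.16, adjusted p = 0.0241). The LSM1 call was lost without LSM1 IAA replicate 2 or 3 or DMSO replicate 1 or 2 (0.35 to 0.49, adjusted p = 0.0522 to 0.188). In POP2 the levels of 104, 122 and 107 CPM with IAA and 77.2, 90.8 and 85.1 CPM with DMSO did not overlap either (0.40, SE 0.159, adjusted p = 0.0466). The POP2 call was lost without any of its IAA replicates or DMSO replicate 1 or 3 (0.33 to 0.46, adjusted p = 0.0503 to 0.16). Total-count scaling ended both calls, and the LSM1 call was also lost with only the LSM1 groups in the fit (adjusted p = 0.308, in a range of 0.000481 to 0.308 over 8 alternatives). In WT the difference was 0.13 (SE 0.159), and the WT and PAB1 groups overlapped. The PAB1 difference of 0.30 was called with the replicate block alone (adjusted p = 0.0182, in a range of 0.0182 to 0.712 over 8 alternatives).

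**Figure D3:**
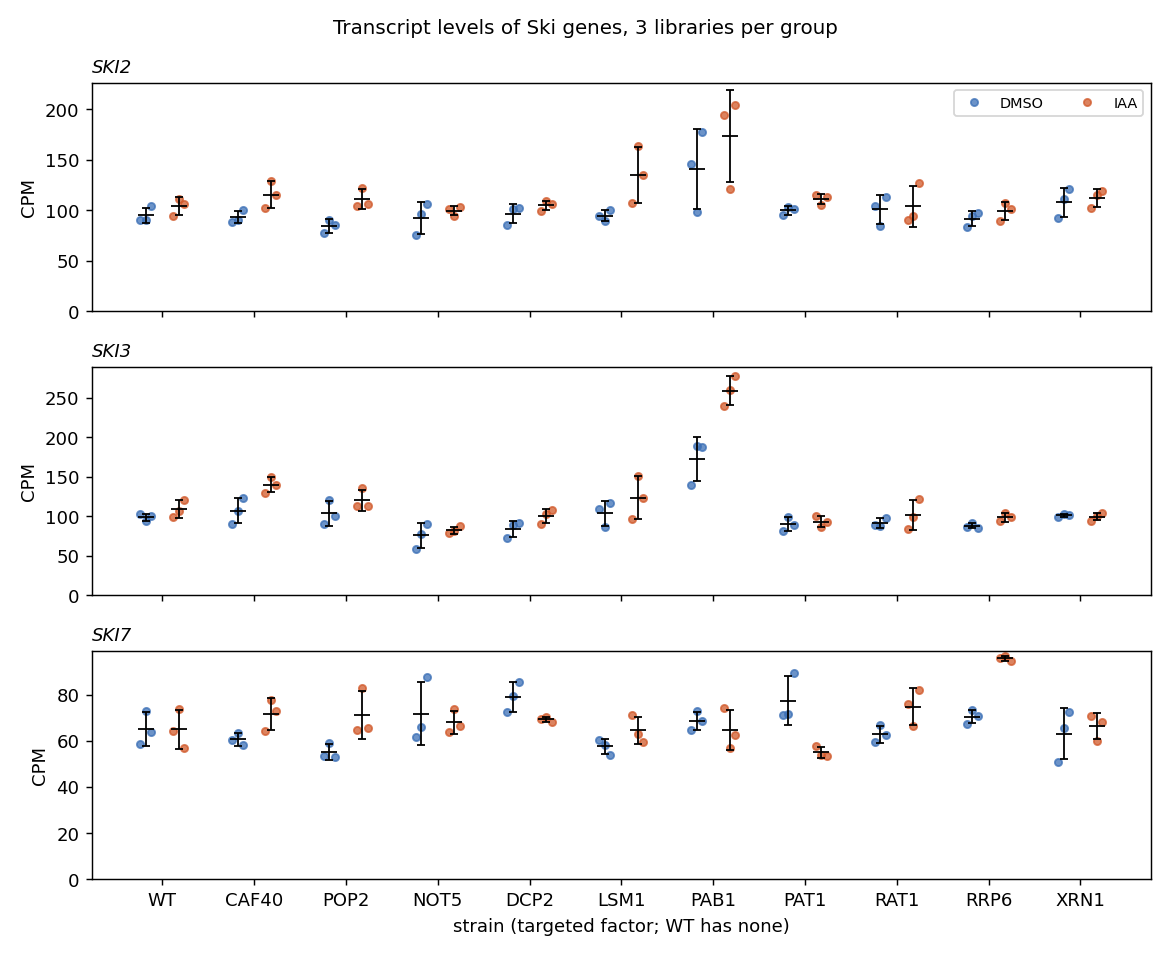
TMM-scaled CPM (y axes, from 0) of SKI2, SKI3 and SKI7 in each library of the 11 strains (x axis), with DMSO in blue and IAA in orange; black marks are the mean ± SD of 3 libraries. SKI3 is highest in the PAB1 strain, SKI2 spreads widely among the PAB1 libraries, and SKI7 is highest in the RRP6 IAA libraries.

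SKI7, the exosome adaptor gene, rose in the RRP6 and POP2 strains and fell in the PAT1 strain. With RRP6 it held 95.8, 96.5 and 94.7 CPM with IAA, the highest group of the series, and 67.4, 73.3 and 70.5 CPM with DMSO. The groups were apart (0.44, SE 0.122, adjusted p = 0.0233). With PAT1 it held 57.7, 53.8 and 53.3 CPM with IAA and 70.9, 71.5 and 89.5 CPM with DMSO. These did not overlap, and SKI7 fell by 0.48 (SE 0.12, adjusted p = 0.0222). In the POP2 strain 64.5, 83.0 and 65.4 CPM with IAA lay above 53.5, 59.2 and 53.0 CPM with DMSO (0.35, SE 0.12, adjusted p = 0.0174).

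None of the SKI7 changes was called beyond WT, where the unadjusted p was under 0.05 in 3 of 10 strains and the differences were 0.45 in RRP6 and -0.48 in PAT1. The RRP6 call was lost without any of the RRP6 IAA replicates or DMSO replicate 1 or 3 (0.40 to 0.44, adjusted p = 0.0569 to 0.101). The PAT1 call was lost without PAT1 IAA replicate 2 or 3 or DMSO replicate 3 (-0.47 to -0.38, adjusted p = 0.12 to 0.344), and the POP2 call without POP2 IAA replicate 2 or DMSO replicate 1 or 3 (0.27 to 0.33, adjusted p = 0.0566 to 0.112). With only the compared groups in the fit the PAT1 and POP2 calls were lost. SKI7 neighbours in the order of means overlapped in 20 of 21 cases, and RRP6 IAA stood clear of DCP2 DMSO (79.0 ± 6.48 CPM).

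Counted over strains, 12 of 77 member and strain pairs were called between IAA and DMSO (15.6%), 6 higher and 6 lower, against 12.3% of all gene and strain pairs (5.7% higher and 6.57% lower). Beyond WT, 3 of 70 were called (4.29%), against 1.88% of all pairs. By strain, 4 of 7 members were called in POP2, where 36.2% of all genes were, 2 of 7 in RAT1 (20% of all genes) and 2 of 7 in PAB1 (22.2%). A single member was called in NOT5 (10.2% of all genes), LSM1 (18.5%), PAT1 (1.34%) and RRP6 (4.62%). None was called by limma in WT (3.41%), CAF40 (7.81%), DCP2 (1.8%) or XRN1 (8.85%), where the unadjusted p was under 0.05 for 1, 2, 0 and 0 members. The change beyond WT was called for 1 member in POP2 (9.69% of all genes) and 2 in RAT1 (6.88%). It was called for none in PAB1 (1.37% of all genes), LSM1 (0.48%), NOT5 (0.326%), PAT1 (0.0515%) and RRP6 (0.0172%), nor in CAF40, DCP2 and XRN1, where limma called 0 of all genes, and the unadjusted p was under 0.05 for 1 member each in PAB1, PAT1, RRP6 and DCP2. With so few members, shares such as 4 of 7 beside 36.2% are descriptions.

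Some members also differed from WT in DMSO, without auxin. Over strains 8 of 70 pairs were called (11.4%), 2 higher and 6 lower, against 10.2% of all gene and strain pairs (5.06% higher and 5.17% lower). Under total-count scaling 10 pairs were called, 1 higher and 9 lower, and the share of all genes under that scaling is not given. In POP2, where 24.8% of all genes were called (11.9% higher and 12.9% lower), 3 members were lower. NMD2 held 132, 114 and 107 CPM in POP2 DMSO against 232, 264 and 268 CPM in WT DMSO, without overlap, and was lower by 1.12 on the log2 scale (-1.12, SE 0.138, adjusted p = 1.01e-07). EBS1 was lower by 0.62 (-0.62, SE 0.0997, adjusted p = 8.64e-06) and NAM7 by 0.43 (-0.43, SE 0.133, adjusted p = 0.0129). The NAM7 call was lost without WT DMSO replicate 2 or 3 or POP2 DMSO replicate 3 (-0.39 to -0.36, adjusted p = 0.0651 to 0.0842). Relative to the WT DMSO mean, POP2 DMSO libraries held 46.2% of NMD2 and 64.9% of EBS1, and POP2 IAA libraries 28.8% and 31.8%.

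In LSM1 DMSO, where 30.2% of all genes were called against WT (15.6% higher and 14.6% lower), 2 members were lower. NAM7 held 117, 138 and 145 CPM against 163, 209.6 and 205 CPM in WT (-0.52, SE 0.133, adjusted p = 0.00223). NMD2 held 159.6, 193 and 207 CPM against 232, 264 and 268 CPM (-0.45, SE 0.141, adjusted p = 0.0124). Neither pair of groups overlapped. The NMD2 call was lost without LSM1 DMSO replicate 1 (-0.34, adjusted p = 0.12) and with only the compared groups in the fit (adjusted p = 0.056). NMD2 was below WT DMSO, its highest group, in 10 of 10 strains, by as little as -0.03 in XRN1, but all these comparisons share the same 3 WT DMSO libraries, so the shared sign is not independent. In the strains other than POP2, LSM1 and PAB1 no member was called against WT by limma, and neither were many genes: 0.0515% of all genes in CAF40, PAT1 and XRN1, 0.103% in DCP2, 0.172% in NOT5, 0.755% in RAT1 and 0.824% in RRP6. The unadjusted p was under 0.05 for 3 members in NOT5, for 1 each in CAF40, DCP2, PAT1 and RAT1, and for 0 in RRP6 and XRN1.

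In PAB1 DMSO, where 45.3% of all genes were called (22.3% higher and 23% lower), SKI3 and SKI2 were higher and EBS1 lower than in WT. SKI3 held 140.2, 189 and 188 CPM against 103, 93.9 and 99.8 CPM in WT, without overlap (0.79, SE 0.141, adjusted p = 1.57e-05). SKI2 held 146, 98.9 and 178 CPM against 90.4, 90.7 and 104 CPM, which overlapped (0.53, SE 0.159, adjusted p = 0.00608). EBS1 held 144, 180 and 172 CPM against 196, 205 and 209 CPM, without overlap (-0.30, SE 0.0994, adjusted p = 0.0118). The SKI2 call was lost without PAB1 DMSO replicate 3 (0.33, adjusted p = 0.128) and the EBS1 call without PAB1 DMSO replicate 1 (-0.20, adjusted p = 0.156). Both were also lost with only the compared groups in the fit (adjusted p = 0.103 for SKI2 and 0.121 for EBS1), and the EBS1 call under median-of-ratios scaling (-0.23, adjusted p = 0.056, in a range of 9.34e-08 to 0.121 over 8 alternatives).

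The PAB1 values depended on the scaling, since total-count scaling moved the median of all genes by -0.40 in this comparison. Under it SKI3 was 0.39 higher, SKI2 was 0.13 higher and not called (adjusted p = 0.516, in a range of 0.00208 to 0.516 over 8 alternatives), and EBS1 was at -0.70. NAM7 (-0.44), NMD2 (-0.49) and SKI7 (-0.32) were then called lower, while in the TMM-scaled fit they were at -0.04, -0.09 and 0.08 and not called.

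**Figure D4:**
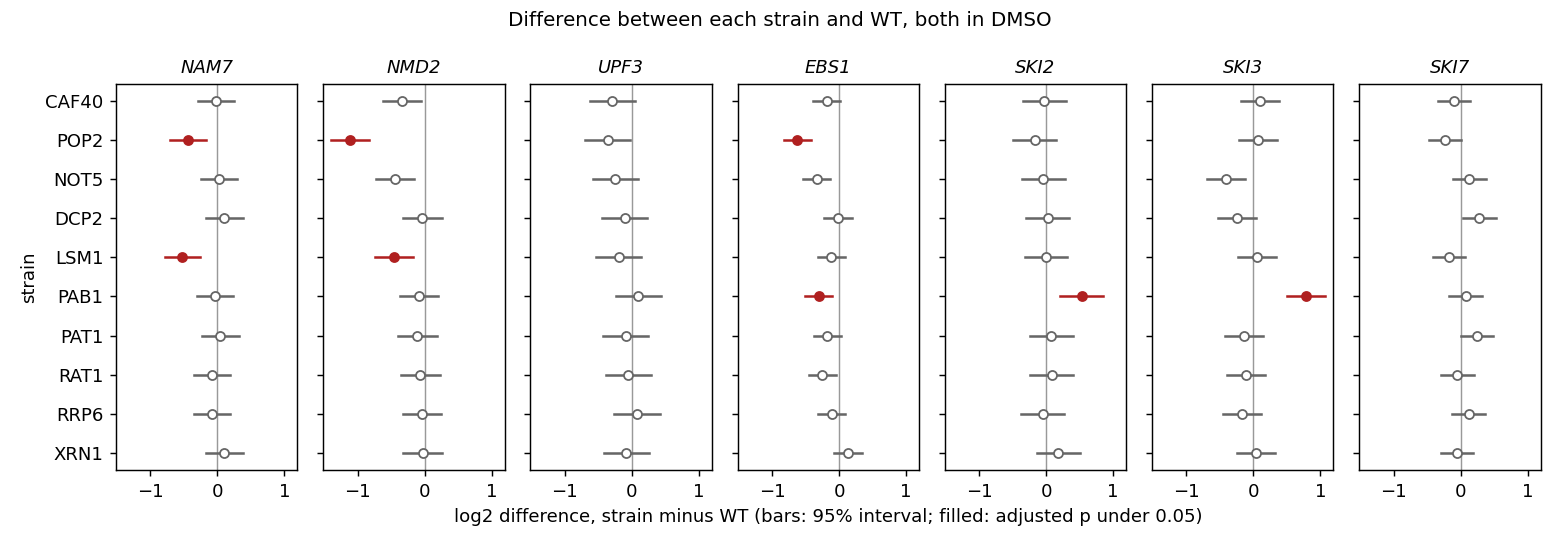
log2 difference between the DMSO libraries of each of 10 strains (y axis) and those of WT (x axes) for the 7 genes, with 95% intervals; filled red points have an adjusted p under 0.05. NMD2 lies left of 0 in all 10 strains and at -1.12 in POP2, and SKI3 lies at 0.79 in PAB1.

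Markers of meiotic progress moved in some of the same comparisons. The summed level of 7 early meiotic genes (IME1, IME2, SPO11, HOP1, REC8, RED1 and ZIP1) was 12600 to 14200 CPM in WT DMSO, 7330 to 10100 in POP2 DMSO and 4230 to 6880 in POP2 IAA. Of the 7, 6 fell with auxin in POP2 (beside 19.5% of all genes). In POP2 DMSO 4 were lower than WT (beside 12.9% of all genes). In LSM1 DMSO the sum was 6060 to 10500 CPM, and 6 of 7 were lower than in WT (beside 14.6% of all genes). In LSM1 IAA it was 4060 to 6510 CPM, and 5 of 7 fell with auxin (median -0.91), beside 10.4% of all genes. In that comparison SKI2 and 5 rescue genes were also called. In PAB1 DMSO the sum was 18500 to 21300 CPM with 4 of 7 higher than WT (beside 22.3% of all genes). In PAB1 IAA it was 12200 to 15000 CPM, with 4 of 7 lower than in PAB1 DMSO (beside 14% of all genes). In WT IAA the sum was 10300 to 13100 CPM, with a median difference from WT DMSO of -0.405 and 0 of 7 called by limma. Beyond WT, 1 of the 7 was called lower in POP2 (median -0.566), 0 in LSM1 (-0.629) and 0 in PAB1 (-0.404). Of all genes, 9.69%, 0.48% and 1.37% were called beyond WT in these strains. The part of these 7 genes in the POP2, LSM1 and PAB1 differences of the members was not tested. In the RAT1 strain, where EBS1 and NAM7 moved in opposite directions, the sum was 13100 to 15200 CPM with IAA and 14400 to 14900 CPM with DMSO (median difference -0.08, against -0.00 over all genes).

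Late sporulation genes (SPS1, SPS4, SPR3, DIT1, SSP1 and CLB1) summed to 102 to 513 CPM in WT DMSO. The sum was 39.5 to 61.5 CPM in POP2 DMSO, 52.9 to 115 in LSM1 DMSO and 341 to 6450 in PAB1 DMSO. In the RAT1 strain it was 489 to 3100 CPM with DMSO and 476 to 1780 CPM with IAA. The median RAT1 difference was 1.74 against WT in DMSO and -0.384 with IAA, with 0 of the 6 called by limma in either. Of these 6 genes, 4 were higher than WT in PAB1 DMSO (beside 22.3% of all genes) and 1 was lower in POP2 DMSO (beside 12.9%). The 6 haploid mating genes, none of which lies at 0 throughout the series, summed to 38.5 to 126 CPM over all libraries. Of the 5 tested, 3 fell with auxin in POP2 (beside 19.5% of all genes) and 1 each in NOT5, LSM1 and RAT1. Among all genes, 10.4% fell in LSM1 and 13% in RAT1, and 10.2% were called in either direction in NOT5. Beyond WT limma called 0 of the 5 in these strains. Against WT in DMSO, 3 of the 5 were called in each of POP2, LSM1 and PAB1, some higher and some lower. Among all genes, 24.8%, 30.2% and 45.3% were called in these comparisons. The part of these genes in the member differences was not tested.

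Transcripts known as targets of nonsense-mediated decay were mostly lower with auxin in the POP2 strain. Of 12 such genes, 8 were called with auxin (1 higher and 7 lower), beside 16.7% of all genes higher and 19.5% lower, with a median difference of -0.62 against -0.06 over all genes. EST1, which encodes a telomerase subunit, fell by 1.16 (SE 0.227, adjusted p = 6.59e-05). EST2, the catalytic telomerase subunit, fell by 1.00 (SE 0.141, adjusted p = 2.46e-07). CAD1, a bZIP transcription factor gene, rose by 0.86 (SE 0.218, adjusted p = 0.00156), and SPT10, a regulator of histone genes, fell by 0.85 (SE 0.174, adjusted p = 0.000133). Beyond WT limma called 0 of the 12 in POP2, where 5 had an unadjusted p under 0.05, with a median of -0.46 against -0.05 over all genes. With only the compared groups in the fit 3 were called. Calls beyond WT among the 12 were made in RAT1 (2 lower, beside 6.88% of all genes) and PAB1 (1 lower, beside 1.37%). In WT itself 2 of the 12 were called with IAA (1 higher and 1 lower), beside 3.41% of all genes. Each of these 3 counts fell to 0 in some fits without 1 library of the groups compared.

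In POP2 DMSO, 7 of the same 12 were called against WT (1 higher and 6 lower), beside 11.9% of all genes higher and 12.9% lower. EST2 was lower by 1.14 (-1.14, adjusted p = 1.16e-08). The kinetochore gene CTF13 (-0.74, adjusted p = 0.0301) and the magnesium transporter gene ALR1 (-0.70, adjusted p = 0.000151) were lower too, while CAD1 was 0.74 higher (adjusted p = 0.00812). EST2 was also lower than WT in LSM1 DMSO (-0.80, adjusted p = 7.58e-06), where 30.2% of all genes and 4 of the 12 were called. The other 3, CPA1 (0.98), EST3 (0.66) and CAD1 (0.58), were higher. That count was 2 without LSM1 DMSO replicate 1 or WT DMSO replicate 2 or 3. In the NOT5 strain 3 of 12 were called with auxin (beside 10.2% of all genes), namely CAD1 (1.12), STN1 (-0.41) and EST2 (-0.39). That count was 1 without NOT5 IAA replicate 1 or DMSO replicate 2 or 3, and 7 with the block. The XRN1 strain, where NAM7 and EBS1 were not called, had 2 of 12 higher (beside 5.35% of all genes) and with the block 4 higher and 1 lower. The XRN1 count was 0 without XRN1 IAA replicate 1 or DMSO replicate 2, and 1 without IAA replicate 2.

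**Figure D5:**
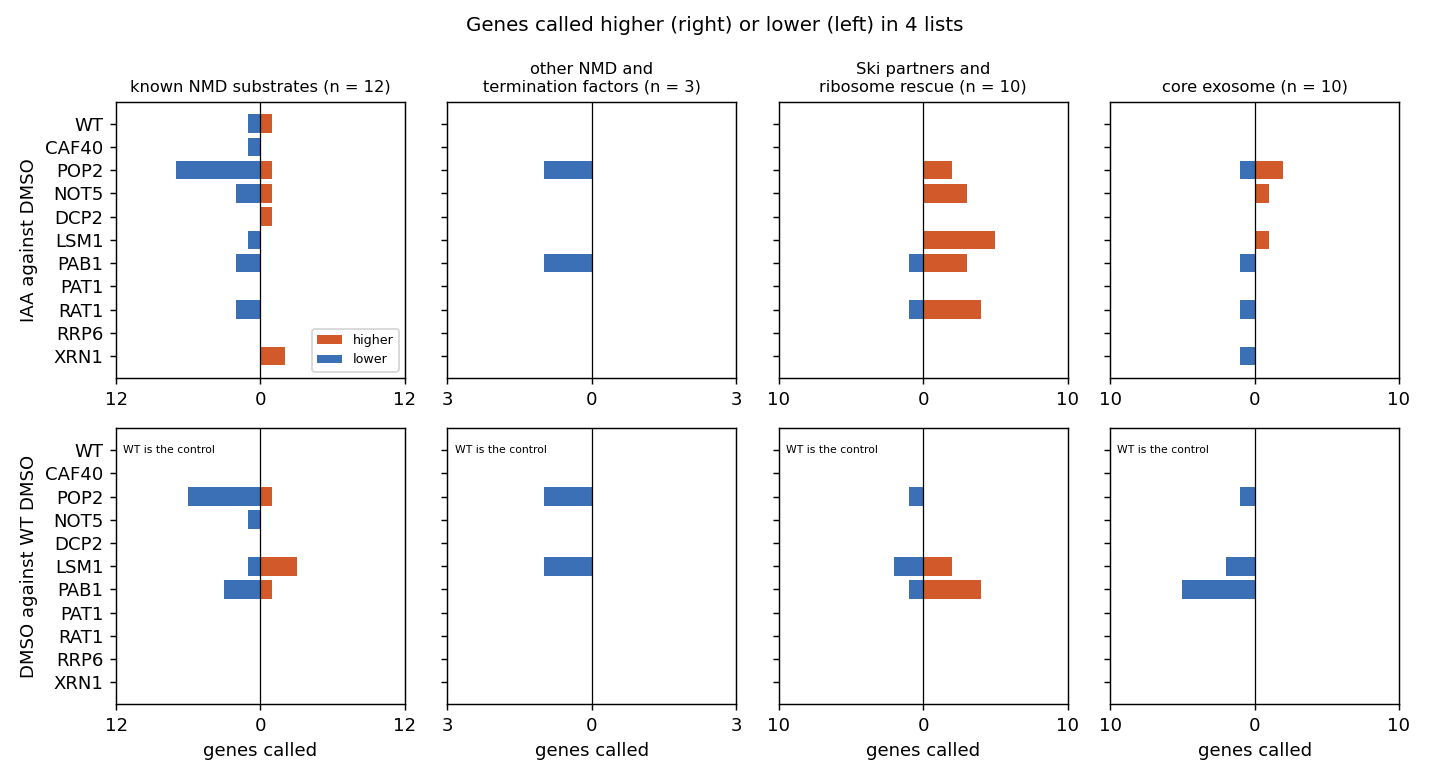
Number of genes called higher (orange, right) or lower (blue, left) in each strain (y axis) for 4 lists of related genes, between IAA and DMSO (top) and between the DMSO libraries and WT DMSO (bottom). The POP2 strain has 7 decay targets lower with IAA and 6 lower in DMSO, and PAB1 DMSO has 5 core exosome genes lower.

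Genes of ribosome rescue and of the Ski side that were called with auxin were mostly higher, but not beyond WT. The list's median in WT itself was 0.20, against 0.36 in LSM1, 0.16 in PAB1 and 0.23 in RAT1. Beyond WT 0 of the 10 were called higher in any strain by limma, and 1 was lower in each of PAB1 and RAT1. The unadjusted p beyond WT was under 0.05, in either direction, for 5 of the 10 in PAB1, 2 in RAT1, 1 each in NOT5, LSM1 and XRN1 and 0 in the other strains. The PAB1 call beyond WT was lost in fits without many single libraries, among them PAB1 IAA replicate 3, PAB1 DMSO replicate 1, WT IAA replicate 1 or 3 and each WT DMSO replicate. Between IAA and DMSO, of the 10 genes, 5 rose in LSM1, where 8.13% of all genes rose and 10.4% fell. In PAB1 3 rose and 1 fell, where 8.15% of all genes rose and 14% fell, and in RAT1 4 rose and 1 fell, where 7.04% rose and 13% fell. The largest LSM1 increases were those of RKR1 (0.56) and RQC1 (0.56) of the quality control of stalled ribosomes, the rescue factor gene DOM34 (0.48) and the helicase gene SLH1 (0.38). The LSM1 count was 1 without LSM1 IAA replicate 3 or DMSO replicate 2, 2 without IAA replicate 2 and 3 without DMSO replicate 3 or under total-count scaling. In PAB1, RQC2 (0.73), RKR1 (0.72) and SLH1 (0.61) rose and SKI8 fell by 0.36. Under total-count scaling 3 of the 5 genes called in PAB1 and 3 of the 5 called in RAT1 were higher.

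SKI8 fell most in the RAT1 strain, by 1.20 (SE 0.105, adjusted p = 7.48e-13), and by 1.23 beyond WT (adjusted p = 1.67e-08), while SKI2 and SKI3 were at 0.04 and 0.14 there and not called. CUE2, an endonuclease gene of stalled-ribosome decay, rose by 1.10 in the same strain (adjusted p = 0.0103), as did RQC1 (0.49) and RQC2 (0.48). Of the 5 calls in RAT1, 3 were made without RAT1 DMSO replicate 2 and 2 without the 3 DMSO libraries with raised CUP1-1, a fit with 1 RAT1 DMSO library left. In PAB1 DMSO 5 of the 10 differed from WT, beside 45.3% of all genes, with HEL2 (0.90), RQC2 (0.85) and SLH1 (0.52) among the 4 higher and DOM34 (-0.57) lower. Under total-count scaling 4 were called there, 1 of them higher.

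Among the 10 core exosome genes, whose products degrade the RNA that the Ski complex delivers, MTR3 moved most. It fell by 1.57 in RAT1 (SE 0.173, adjusted p = 5.53e-10) and to 0.406-fold beyond WT (adjusted p = 6.83e-05), and it also fell in PAB1 (-0.87, adjusted p = 0.000224). In PAB1 DMSO 5 of 10 were lower than in WT, beside 23% of all genes, with RRP46 at -0.67 and CSL4 at -0.64. That count was 8 under total-count scaling and 2 with only the compared groups in the fit. It was 2 without WT DMSO replicate 3, and 3 without WT DMSO replicate 2 or PAB1 DMSO replicate 1 or 2. NMD4, which encodes a Upf1-binding protein, fell in PAB1 by 1.07 (SE 0.185, adjusted p = 1.84e-05) and was lower than WT in POP2 DMSO (-0.80, adjusted p = 0.000346). Of the translation termination factor genes SUP35 and SUP45, the first was called lower in POP2 (-0.39, adjusted p = 0.0388), a call lost without POP2 IAA replicate 2 or 3 or DMSO replicate 1 or 2, without several libraries of other strains, under median-of-ratios scaling and with either other filter on low counts. With only the compared groups in the fit, none of the genes in the 4 lists was called by limma between IAA and DMSO in NOT5, LSM1 or PAB1.

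Likeness was measured as Pearson's r between mean log2 CPM over the 22 groups, which share strains and libraries, so the values are descriptions. The median over all pairs of tested genes was 0.00. Among the members the closest pair was SKI2 and SKI3 (r = 0.848), with 29 genes closer to SKI2 than SKI3 was. NMD2 and EBS1 followed (0.71), then NMD2 and UPF3 (0.584) and NAM7 and NMD2 (0.574). NAM7 and EBS1 were nearly unrelated (0.094), and SKI7 was unlike SKI2 (-0.023) and SKI3 (-0.12). The gene most like NMD2 was the decay target EST2 (0.923), followed by MMS1 (0.923). Most like EBS1 were YEA6 (0.933) and KRE29 (0.929), most like SKI2 were SEC3 (0.95) and DNF2 (0.919), and most like SKI3 were VPH1 (0.967) and CCH1 (0.962). For NAM7 the closest were YNL203C (0.826) and ATR2 (0.812), for UPF3 GCD6 (0.814) and CHS6 (0.785), and for SKI7 NRD1 (0.778) and FEX2 (0.731).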

How the data were processed

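The authors deposited 1 table of the series. Its gene lines hold whole-number read counts per library, not scaled, while 72 lines of principal component scores stand above the genes in the same deposited columns, so the unit of a whole column is other than counts. The score lines were not used. Another 6 columns matched no sample and were not used. STAR 2.7.10a, RSEM 1.3.1 and DESeq2 1.48.1 are named in the submitters' processing notes. The libraries came from a directional poly(A) kit, per the labels' protocols. The genome build, annotation and strand setting of the counting are not given in the sources used here, so no coordinates or sequences are printed.

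Symbols, coding lengths and overlaps came from RefSeq (5626 of 6171 identifiers, 91.2%, had an entry), and no RefSeq gene overlapped a member. Genes with at least 0.484 CPM (10 counts at the median library) in 3 libraries and 15 counts in total were kept (5828 kept, 343 removed). Libraries were scaled by TMM (factors 0.63 to 1.17, with means of 0.674 in PAB1 IAA and 0.78 in PAB1 DMSO). After adding a pseudocount of 0.5 counts, log2 CPM values were fitted with voom weights in limma 3.58.1 (R 4.3.3), with 1 mean per group over 66 libraries, and tested on simulated data. Figures used Python 3.11.15 and matplotlib 3.10.9. Floors are 3 counts and cover counting error only. All 66 replicate pairs within groups differed beyond counting noise (chi-square per degree of freedom 20.9 to 1120).

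Members, gene lists and tests were chosen with earlier results of these data known. Members were given in all comparisons, 4 lists of 35 related genes as counts with up to 4 called genes named per comparison, and the 2 genes most alike per member. Same-numbered IAA and DMSO libraries deviated together in 8 of 11 strains (every correlation over 0.1, not in WT, CAF40 or POP2), and DMSO with WT DMSO in LSM1 alone. Alternatives were 2 other scalings, 2 other filters, a replicate block, fits of the compared groups alone, no weights, leaving out each library and leaving out 3 DMSO libraries with raised CUP1-1.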

Additional observations from a re-analysis of the deposited data

Results flagged for a closer look

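The IAA effect differed between a degron strain and WT, by the test of the difference itself, for 3 member and strain pairs. EBS1 fell further in the POP2 strain than in WT (-0.788 on the log2 scale, adjusted p = 0.000174) and further in the RAT1 strain than in WT (-0.742, adjusted p = 0.000174). NAM7 rose in the RAT1 strain and not in WT (0.812, adjusted p = 0.00311). Both EBS1 values were called in each of 12 fits that left out 1 library of the groups compared, as was the NAM7 value. Both RAT1 values rest on RAT1 DMSO libraries of which 2 had raised CUP1-1, and without the 3 libraries with raised CUP1-1, which leaves 1 RAT1 DMSO library and takes the spread from the other groups, the EBS1 value was called and the NAM7 value was not (adjusted p = 0.107).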

How the results depend on the processing

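Between IAA and DMSO 12 member and strain pairs were called, and 6 were with only the groups compared in the fit, which leaves fewer libraries to estimate the spread. The count was 18 with the replicate block, which lost no call. Shares of all genes are given for the TMM-scaled fit of all 66 libraries without a block only. Counts of members or list genes under other settings therefore have no such share beside them. Leaving out 1 library gave 9 to 13 calls between IAA and DMSO, 3 to 4 beyond WT and 7 to 8 in DMSO. Of the 23 called pairs, 12 were called in every alternative that kept all libraries or left out the 3 with raised CUP1-1, 13 in every fit without 1 of their own libraries, 10 in all of these, and none turned in sign. Not every pair of same-numbered libraries correlated over 0.1 between IAA and DMSO in CAF40 (mean 0.247) and POP2 (0.198). Nor did every pair of NOT5 DMSO with WT DMSO (0.0717). In these comparisons the block also called EBS1 (-0.30, adjusted p = 0.0198), SKI2 (0.31, adjusted p = 0.0283) and SKI3 (0.40, adjusted p = 0.0205) in CAF40. It further called NMD2 beyond WT in POP2 (adjusted p = 0.00663), 5 of 12 decay targets beyond WT in POP2 (all lower) and EBS1 in NOT5 DMSO (adjusted p = 0.0429). Between IAA and DMSO in the strains where every pair was over 0.1, the block changed the call of SKI2 in PAB1, EBS1 in PAT1 and UPF3 in XRN1. It changed no other call of the 7 members there. It also raised counts of list genes, as for core exosome genes with IAA in LSM1, PAB1 and RAT1 (1 to 4 in each). Uncalled differences changed sign 22 times under total-count scaling and 11 times under median-of-ratios scaling. The members had at least 826 counts in every library.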
